A study of Homo sapiens with 2 samples.

Results

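The genes described here are the 59 named DNA replication and S-phase genes, taken from a list of symbols and grouped by role into origin recognition and licensing (15 genes), origin firing (10), polymerases and primase (10), clamp, clamp loader, single-strand binding and Okazaki fragments (11), nucleotide supply (4), E2F transcription factors (5) and chromatin and histone supply (4). The list was chosen with earlier results of these data known. All 59 were measured, by 158 of the 49395 probe sets of the array, among 18132 genes with a probe set. H1299 is an established line from a human non-small cell lung cancer. It was transiently transfected by lipid reagent with a pcDNA3.1 plasmid carrying EGR1, a zinc-finger transcription factor of the immediate-early class, or with the empty pcDNA3.1 plasmid, and RNA was taken 48 hours later. Each group was 1 Affymetrix array, so no difference below has a replicate error, a test or a p-value, and each describes these 2 arrays only. The share of cells that took up plasmid is not given in the sources used here.

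DNA replication starts at origins that are bound by the origin recognition complex, loaded with the MCM helicase by CDC6 and CDT1 in G1, and fired in S phase by the kinases CDC7-DBF4 and CDK2. The helicase then joins CDC45 and the GINS complex, polymerase alpha with primase lays down primers, polymerases epsilon and delta extend them on the leading and lagging strands, and PCNA holds the polymerases on DNA. Many of these genes are transcribed together at the G1/S boundary by E2F factors, which the retinoblastoma protein holds back until cyclin-dependent kinases phosphorylate it. Proliferating cancer cells express the whole set, and its RNA level is commonly read as a measure of how many cells are cycling.

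The values are log2 RMA levels. RMA adjusts each array for background, brings the arrays to a common distribution and combines probes into 1 value per probe set. Its scale is arbitrary, so levels were compared between arrays and not between genes. Each gene was read from its brightest probe set, the one with the highest mean of both arrays. A floor at the 40th percentile of all mean levels (5.22 on the log2 scale) left 12652 genes, and all 59 members lay above it, with mean levels of 6.02 (MCM5) to 12.37 (MCM7). Differences are log2 levels, EGR1 minus empty vector. Repeat measurement is limited to genes that have several probe sets, whose differences, counting those past the floor, had a pooled SD of 0.15 (log2) over 7113 genes and 0.11 over the 41 members that have 2 or more such probe sets. This SD covers probe-level error and leaves out error between cultures and arrays. Over all probe sets, which are no independent replicates, the arrays correlated at r = 0.995 (Pearson).

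The labels were checked on EGR1 itself. Of its 6 probe sets, 11717861_a_at read 11.43 in the EGR1 array and 7.70 in the empty-vector array, and 11751643_x_at read 9.92 in the EGR1 array and 7.17 in the empty-vector array. The other 4 were slightly lower in the EGR1 array, with differences of -0.39 to -0.20. Where these probe sets lie relative to the plasmid insert was not established, and a probe set outside the insert checks nothing. Of fixed cell markers, the epithelial keratins KRT8 and KRT18 and the mesenchymal genes VIM, CDH2 and FN1 lay above the floor, and the epithelial genes EPCAM and CDH1 under it. KRT8 read 9.97 in the EGR1 array and 7.97 in the empty-vector array, and KRT18 read 12.47 in the EGR1 array and 10.70 in the empty-vector array. Both keratins thus differed by far more (2.00 and 1.76) than any replication gene below, and the part of this in the replication results was not tested. Past the floor were also 4 of 5 lung differentiation markers (levels up to 6.88), 1 of 3 leukocyte markers (CD3E, with PTPRC and CD14 under it), 1 of 4 fibroblast markers (PDGFRB, with COL1A1, COL3A1 and DCN under it) and 3 of 4 endothelial markers (PECAM1, VWF and KDR, with CDH5 under it), with differences of up to 0.30 in size.

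Most replication genes were slightly lower in the EGR1 array. Of the 59 members, 52 (88.1%) had a difference below 0 and 7 above it, with a median of -0.15 and a middle range from the 25th to the 75th percentile of -0.20 to -0.07. Among all 12652 genes past the floor 52.8% were below 0, and their median was -0.02. No member reached 2-fold in either direction, as was true of all but 0.356% of genes past the floor. At 1.2-fold, 7 members (11.9%) were lower and none higher, against a background of 5.85% of genes lower and 7.07% higher at that threshold. With probe sets averaged only 4 of 58 members (6.90%) were that much lower, against 5.68% of all genes. That mean took in probe sets under the floor. It put CDC7 at -0.21 and POLD3 at -0.24, against means of -0.28 and -0.31 over probe sets past the floor. CDC6 (-0.22) and E2F7 (-0.17), with no probe set under the floor, also fell short when averaged. The 7 by the brightest probe set were FEN1, E2F7, POLE2, POLD3, CDC7, CDC25A and CDC6. DNMT1 was among the 4 by averaged probe sets (-0.38) and not among these 7. Its brightest probe set gave -0.12 and its other one -0.64. CDC6 was the nearest inside the threshold at -0.27 and MCM5 the nearest outside it at -0.25. In 31 members the difference lay below 0 by more than the pooled SD of 0.15, and in none above 0 by as much. The least negative of the 31 was PRIM2 at -0.15, and 18.9% of genes past the floor were lower still. The share of all genes above 0 by more than that SD was not counted. In bulk RNA, fewer cells in S phase and less RNA of these genes per cell cannot be told apart. With 1 array per group, neither can be told apart from a difference between cultures or arrays.

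**Figure D1:**
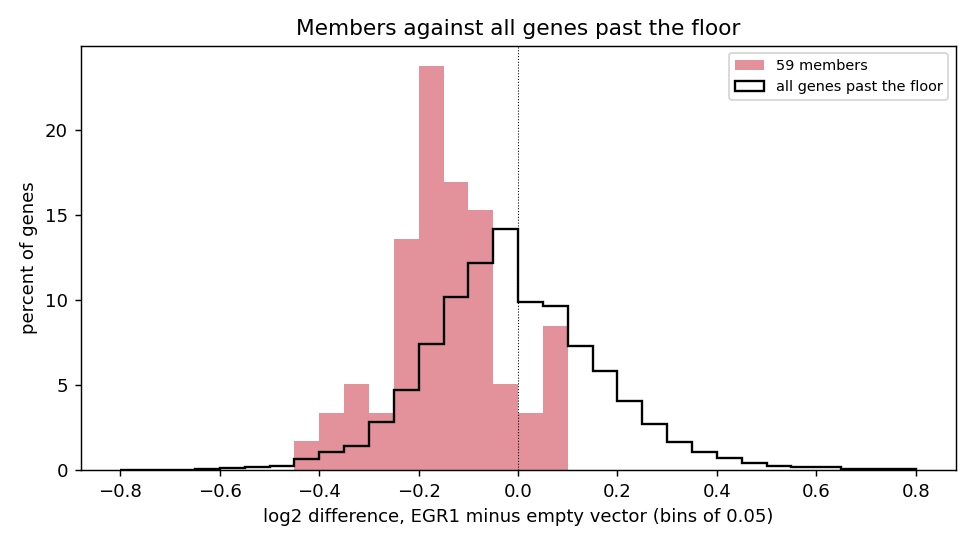
Histogram of the log2 difference (EGR1 minus empty vector, x axis) as percent of genes per bin (y axis) for the 59 members (filled) and all 12652 genes past the floor (line); 68 of all genes lie outside the plotted range. The middle 29 members lie between -0.20 and -0.07, and none lies above 0.10.

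The signal level moved with the sign of the difference. When genes past the floor were divided by mean level into 10 equal parts, 36.7% of the dimmest part and 69.2% of the second brightest part were below 0, and 36 of the 59 members lay in the 3 brightest parts. With each part weighted as the members fall into it, 62.7% of genes were below 0 and 4.63% were at or beyond 1.2-fold lower. After a lowess fit of the difference on level was subtracted, the members' median was -0.10, and 49 of 59 (83.1%) were below 0 against 47.3% of all genes; 5 members were at or beyond 1.2-fold lower. Within the members, level and difference were weakly related (Pearson r = 0.19, Spearman rho = 0.25, across 59 genes of the same arrays, given as a description).

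**Figure D2:**
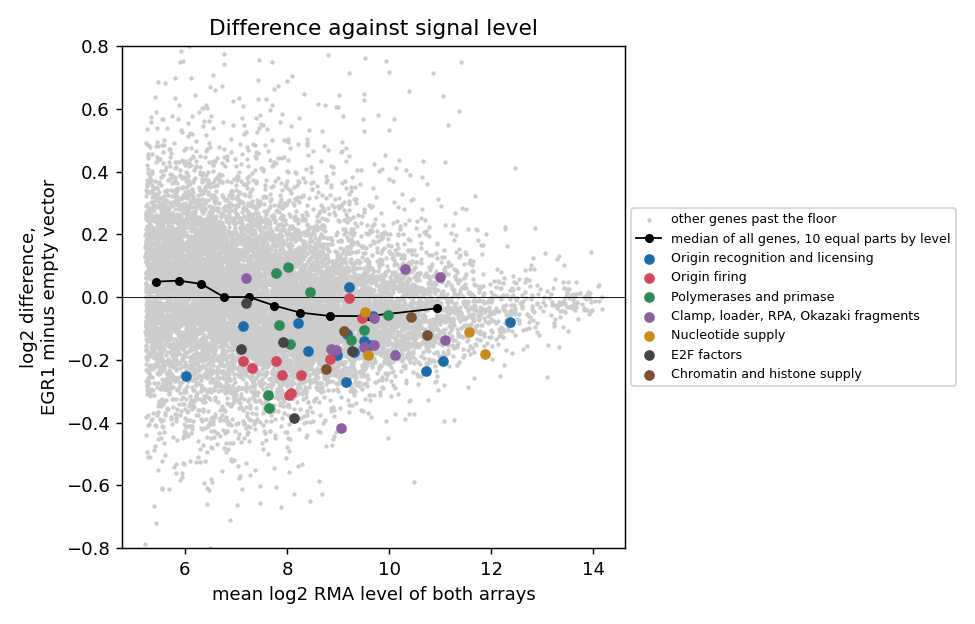
Log2 difference (EGR1 minus empty vector, y axis) against the mean log2 level of both arrays (x axis) for other genes past the floor (grey), the members (coloured by role) and the median of all genes in 10 equal parts by level (black line, 0.05 in the dimmest and -0.06 in the second brightest part). Most members lie under the black line at their own level; genes beyond 0.8 in either direction are not drawn.

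Probe sets of one member mostly pointed the same way. Of the 145 member probe sets past the floor, 128 (88.3%) were below 0, 16 above and 1 at exactly 0, against 54.7% below 0 among all named probe sets past the floor. In 31 of the 41 members that have 2 or more of them every one was below 0, while 34.4% of all genes with at least 2 did so. The 7 members at 1.2-fold lower were less uniform in size. Of the 5 with a second probe set past the floor, that probe set was below 0 in 4 and at or beyond 1.2-fold lower in 1 (FEN1).

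The promoters of these genes are known for E2F sites, and the letters were examined in RefSeq windows (GRCh38.p14) of 250 bases before to 50 after a start site. Windows were matched by symbol for 51 of the 59 members (68 windows, since 13 genes have more than 1). An E2F match was the string TTGGCGC on either strand, with overlaps allowed. Known variants counted in the same way were the string TTCGCGC, likewise the string TTCCCGC, and last the string TTGCCGC. Such a match was found in 61.8% of member windows, against 16.1% of the windows of protein-coding genes and 13.0% of all 35116 windows. The CCAAT box (CCAAT, either strand), a site of the factor NF-Y, was found in 52.9% of member windows and 34.6% of all windows. The CHR element (TTTGAA, either strand), known from promoters of mitotic genes, was in 5.88% of member windows and 15.2% of all windows. The EGR-type string GCGNGGGCG was in 14.7% of member windows, against 12.1% of the windows of protein-coding genes and 9.43% of all windows. The median difference was -0.14 in the 39 members with an E2F match and -0.12 in the 12 without one. It was -0.14 both in the 30 with a CCAAT box and in the 21 without, and -0.14 both in the 4 with a CHR element and in the 47 without. For the EGR string it was -0.09 in the 10 with a match and -0.14 in the 41 without. A match describes the letters and is no evidence of binding.

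**Figure D3:**
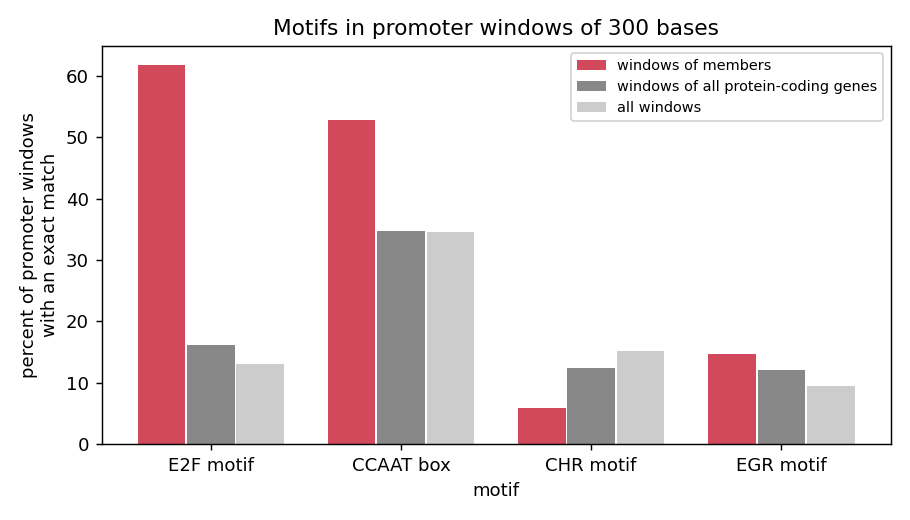
Percent of 300-base promoter windows (y axis) with at least 1 exact match to each motif (x axis) for members, for all protein-coding genes and for all windows. The E2F bar is at 61.8% for members and 16.1% for protein-coding genes, and the CHR bar is lower for members (5.88%) than for protein-coding genes (12.4%).

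5 windows are shown for the range of E2F matches among members at both ends of the response, 5′ to 3′ on the strand of the gene, with E2F letters in capitals. CDC6 (chr17:40287629-40287928, plus strand) has 1 match, MCM6 (chr2:135876394-135876693, minus strand) has 4 that overlap in pairs, E2F7 (chr12:77065520-77065819, minus strand) has 2, FEN1 (chr11:61792661-61792960, plus strand), the member with the most negative difference, has none of these letters, and POLE (chr12:132687293-132687592, minus strand), the member with the most positive difference, has 2.
CDC6: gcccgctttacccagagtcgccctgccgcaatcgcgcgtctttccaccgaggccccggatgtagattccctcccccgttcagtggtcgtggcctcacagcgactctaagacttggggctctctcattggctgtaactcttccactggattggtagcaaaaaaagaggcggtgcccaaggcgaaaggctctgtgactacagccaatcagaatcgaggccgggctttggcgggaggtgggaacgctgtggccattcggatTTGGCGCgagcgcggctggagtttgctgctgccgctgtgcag
MCM6: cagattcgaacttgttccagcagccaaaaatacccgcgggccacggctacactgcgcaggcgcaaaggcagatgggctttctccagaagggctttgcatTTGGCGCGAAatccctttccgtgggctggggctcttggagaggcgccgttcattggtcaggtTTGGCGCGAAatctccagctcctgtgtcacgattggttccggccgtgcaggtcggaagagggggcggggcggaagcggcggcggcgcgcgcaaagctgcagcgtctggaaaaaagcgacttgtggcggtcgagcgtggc
E2F7: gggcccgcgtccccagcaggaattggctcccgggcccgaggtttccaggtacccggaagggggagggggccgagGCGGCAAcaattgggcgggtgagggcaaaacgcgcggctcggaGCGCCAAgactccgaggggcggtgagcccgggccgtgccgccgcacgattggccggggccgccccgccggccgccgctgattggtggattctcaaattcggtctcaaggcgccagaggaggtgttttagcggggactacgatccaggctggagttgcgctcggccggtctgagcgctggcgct
FEN1: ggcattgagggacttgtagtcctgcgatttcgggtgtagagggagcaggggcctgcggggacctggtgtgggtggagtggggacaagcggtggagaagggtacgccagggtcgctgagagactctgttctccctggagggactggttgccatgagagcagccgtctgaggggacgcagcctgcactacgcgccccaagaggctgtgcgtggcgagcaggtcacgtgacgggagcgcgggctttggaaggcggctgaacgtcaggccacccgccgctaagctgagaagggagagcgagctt
POLE: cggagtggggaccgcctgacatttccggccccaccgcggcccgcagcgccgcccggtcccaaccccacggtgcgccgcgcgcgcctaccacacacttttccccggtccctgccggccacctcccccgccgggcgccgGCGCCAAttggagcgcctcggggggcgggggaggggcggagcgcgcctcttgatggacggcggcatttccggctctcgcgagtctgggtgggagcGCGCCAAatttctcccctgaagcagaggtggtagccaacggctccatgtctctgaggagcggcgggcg

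The EGR-type string was found in 3 of the 6 members above 0 that have a window (RPA1, LIG1 and POLD1) and in 7 of the 45 below 0. By gene, it was in 19.6% of members and 15.7% of protein-coding genes with a window. No member above 0 exceeded the pooled SD of 0.15, and LIG1 was at -0.09 with its second brightest probe set. The split by sign is therefore not settled. These counts are small and are given as a description. The windows of RPA1 (chr17:1829755-1830054, plus strand) and LIG1 (chr19:48170295-48170594, minus strand) are shown with that string, read on the opposite strand in both, in capitals.
RPA1: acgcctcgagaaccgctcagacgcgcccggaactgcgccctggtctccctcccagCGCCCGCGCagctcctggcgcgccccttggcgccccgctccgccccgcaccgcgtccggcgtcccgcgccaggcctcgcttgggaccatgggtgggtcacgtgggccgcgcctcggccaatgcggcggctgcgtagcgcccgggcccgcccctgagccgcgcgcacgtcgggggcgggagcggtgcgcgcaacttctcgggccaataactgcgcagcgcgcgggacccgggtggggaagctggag
LIG1: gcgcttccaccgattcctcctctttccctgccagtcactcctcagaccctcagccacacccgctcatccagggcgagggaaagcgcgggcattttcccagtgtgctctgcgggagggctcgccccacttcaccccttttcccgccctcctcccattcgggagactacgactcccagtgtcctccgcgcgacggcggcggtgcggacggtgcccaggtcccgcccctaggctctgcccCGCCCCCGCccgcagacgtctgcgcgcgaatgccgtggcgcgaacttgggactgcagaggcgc

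**Figure D4:**
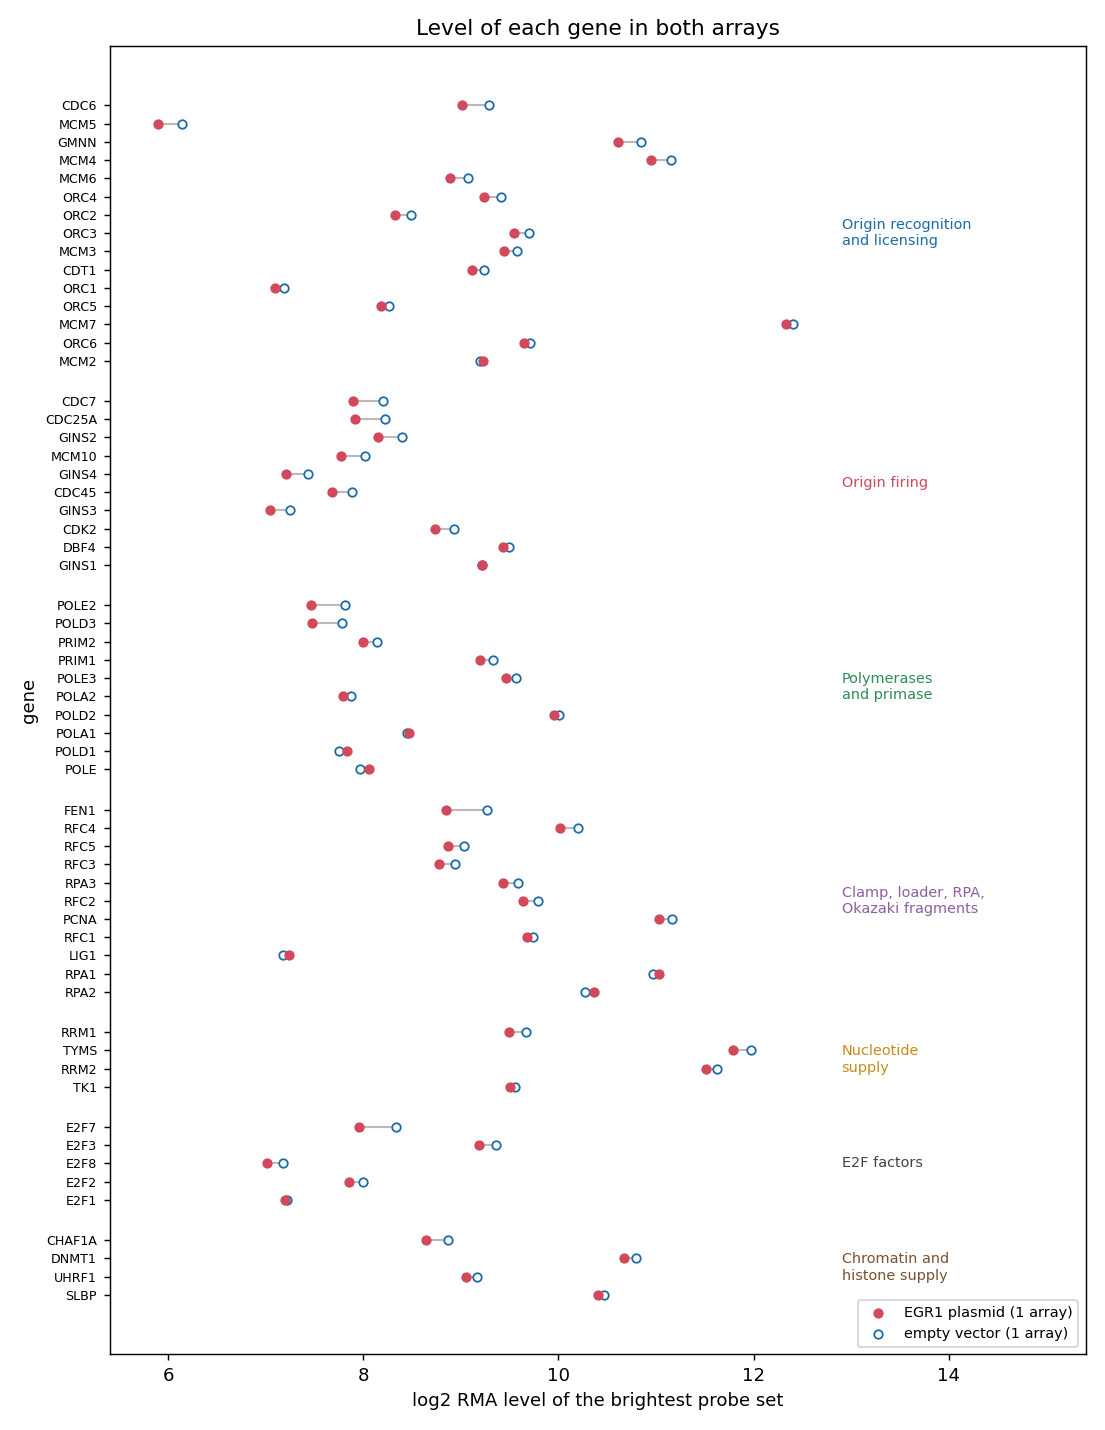
Log2 RMA level of the brightest probe set (x axis) of each of the 59 genes (y axis, by role) in the EGR1 array (filled) and the empty-vector array (open), 1 array each. The EGR1 point lies left of the empty-vector point in 52 genes, and the widest gap is that of FEN1 (8.85 against 9.27).

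Origin recognition and licensing genes were lower in 14 of 15, with a median of -0.15 and 1 member at 1.2-fold. CDC6, the ATPase that recruits the MCM helicase to origin-bound ORC, read 9.02 in the EGR1 array and 9.29 in the empty-vector array, a difference of -0.27 (1.21-fold lower), and its other probe set gave -0.17. CDT1, the licensing factor that works with CDC6, read 9.12 in the EGR1 array and 9.24 in the empty-vector array, and its 3 probe sets were close together, from -0.13 to -0.09. Geminin (GMNN), the inhibitor of CDT1 that blocks a second round of licensing, read 10.61 in the EGR1 array and 10.84 in the empty-vector array by its 1 probe set (-0.23). CDT1 and its inhibitor therefore both read lower. The pooled SD describes single probe sets and not a gap between genes, so the error of the gap between their differences is not known.

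The 6 subunits of the origin recognition complex had differences of -0.17 to -0.06 with a median of -0.12, and none reached 1.2-fold. ORC4 read 9.23 in the EGR1 array and 9.41 in the empty-vector array, and ORC2 read 8.32 in the EGR1 array and 8.49 in the empty-vector array. The 3 ORC2 probe sets agreed to within 0.02 around a mean of -0.16 (SD 0.010 between probe sets). ORC1, the subunit whose protein level cycles in human cells, differed by -0.09 and ORC6 by -0.06, each with 1 probe set. ORC3 had 7 probe sets, which ran from -0.40 to 0.09.

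Of the MCM helicase subunits MCM2 to MCM7, 5 of 6 were lower, with a median of -0.16. MCM5 read 5.90 in the EGR1 array and 6.15 in the empty-vector array (-0.25, 1 probe set) and was the dimmest member. MCM4 read 10.95 in the EGR1 array and 11.15 in the empty-vector array, and its 5 probe sets gave nearly the same value (mean -0.21, SD 0.027, range -0.25 to -0.19). MCM6 read 8.89 in the EGR1 array and 9.08 in the empty-vector array (-0.19), although 1 of its 3 probe sets was at 0.03. MCM3 differed by -0.14 and MCM7, the brightest member, by -0.08, with every probe set of both below 0. MCM2 was the exception at 0.03 by its brightest probe set (9.23 in the EGR1 array and 9.19 in the empty-vector array), but its other 3 probe sets were below 0, and the mean of all 4 was -0.07. These subunits form 1 ring of fixed make-up, and their differences spanned 0.28 on the log2 scale. How much of this span is probe-level error was not tested.

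Origin firing genes were lower in all 10, with a median of -0.21. This was the most negative of the 7 group medians by the brightest probe set, but not without _x_at and _s_at probe sets (-0.20 for firing, -0.27 for E2F factors) or with probe sets averaged (-0.195 for firing, -0.197 for chromatin genes). CDC7, the kinase that phosphorylates the loaded MCM ring, read 7.89 in the EGR1 array and 8.20 in the empty-vector array (-0.31, 1.24-fold lower), with -0.25 in the other probe set past the floor. DBF4, its activating subunit, differed by only -0.07 by the brightest probe set, while its 6 probe sets past the floor ran from -0.18 to -0.05. CDC25A, the phosphatase that removes inhibitory phosphate from CDK2, read 7.92 in the EGR1 array and 8.22 in the empty-vector array (-0.30, 1.23-fold lower). Its 3 probe sets ran from -0.44 to -0.22, so that CDC25A was lower by every probe set, and CDK2 itself differed by -0.20 with 2 of 3 probe sets below 0.

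Transcripts of the factors that turn the loaded MCM ring into the active helicase were lower, except that GINS1 was nearly level. MCM10 read 7.77 in the EGR1 array and 8.02 in the empty-vector array (-0.25), and its 3 probe sets ran from -0.31 to -0.16. CDC45 read 7.68 in the EGR1 array and 7.88 in the empty-vector array (-0.20), with 3 probe sets from -0.23 to -0.13. In the GINS complex, which joins CDC45 and MCM, GINS2 (-0.25), GINS4 (-0.23) and GINS3 (-0.20) lay close together by the brightest probe set. The 3 GINS4 probe sets past the floor ran from -0.24 to -0.02. GINS1 read 9.21 in the EGR1 array and 9.22 in the empty-vector array (-0.0027), and its other 2 probe sets were under the floor, so its value rests on 1 probe set.

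Polymerase and primase genes differed in sign by subunit when read from the brightest probe set. All 3 catalytic polymerase subunits were slightly above 0: POLE, of the leading-strand polymerase epsilon, read 8.06 in the EGR1 array and 7.97 in the empty-vector array (0.10), POLD1, of the lagging-strand polymerase delta, differed by 0.08 and POLA1, of polymerase alpha, by 0.02. The other 7 polymerase and primase subunits were all below 0, with a median of -0.14. Each catalytic subunit had 1 probe set, and its difference was under the pooled SD of 0.15 between probe sets, so the sign of any of them is not settled. The differences of POLD2, POLA2, POLE3 and PRIM1 were under that SD as well. A split by subunit is therefore not settled. The group median was -0.10, which became -0.18 with the second brightest probe set (4 genes) and -0.05 after the lowess correction.

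Among the accessory subunits, POLE2, which binds POLE, read 7.46 in the EGR1 array and 7.82 in the empty-vector array (-0.35, 1.28-fold lower, 1 probe set). Within polymerase epsilon the catalytic and the POLE2 transcript thus differed by 0.45. Each rests on 1 probe set, and the pooled SD describes single probe sets and not a gap between genes. The error of this gap is therefore not known. POLD3, the delta subunit that binds PCNA, read 7.47 in the EGR1 array and 7.78 in the empty-vector array (-0.31, 1.24-fold lower). Its other 2 probe sets, under the floor, entered only the mean of all probe sets. POLD2 differed by -0.06, POLE3, a histone-fold subunit of epsilon, by -0.10 and POLA2 by -0.09, although the dimmer POLA2 probe set gave -0.43. The primase subunits, which make the RNA primers, were alike by the brightest probe set, at -0.14 for PRIM1 and -0.15 for PRIM2. The dimmer PRIM2 probe set gave -0.30.

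Genes of the clamp, its loader and Okazaki fragment maturation were lower in 8 of 11 (72.7%), with a median of -0.15. Of all genes past the floor 52.8% were below 0, and 65.6% to 69.2% in the 3 brightest parts by level, so this count is near the background of bright genes. FEN1, the flap endonuclease that trims Okazaki fragments, had the most negative difference of all 59 members. It read 8.85 in the EGR1 array and 9.27 in the empty-vector array (-0.42, 1.33-fold lower), and 1.19% of genes past the floor were lower still. Its 3 probe sets gave -0.42, -0.35 and -0.28, each past 1.2-fold. LIG1, the ligase that seals the fragments FEN1 has trimmed, did not share this. It read 7.23 in the EGR1 array and 7.17 in the empty-vector array (0.06), and its 6 probe sets lay on both sides of 0, from -0.09 to 0.29.

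PCNA, the sliding clamp, read 11.03 in the EGR1 array and 11.16 in the empty-vector array (-0.14). The 5 subunits of replication factor C, which loads it, were all below 0 by the brightest probe set. They ran from -0.18 for RFC4 to -0.07 for RFC1, with a median of -0.17. Probe sets of single subunits spread more widely, from -0.34 to -0.02 for RFC5 and from -0.24 to -0.07 for RFC1. RFC2 and RFC4 each had 1 probe set past the floor. RPA, the single-strand binding trimer, was uneven. RPA3 differed by -0.16 (1 probe set), RPA1 by 0.06 with both probe sets above 0, and RPA2 by 0.09 by the brightest of 3 probe sets, the other 2 of which were at -0.10 and -0.09.

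All 4 nucleotide-supply genes were lower, with a median of -0.15 and none at 1.2-fold. Ribonucleotide reductase makes deoxyribonucleotides; its large subunit RRM1 read 9.49 in the EGR1 array and 9.67 in the empty-vector array (-0.18), and its S-phase small subunit RRM2 read 11.51 in the EGR1 array and 11.62 in the empty-vector array (-0.11). TYMS, the thymidylate synthase, read 11.79 in the EGR1 array and 11.97 in the empty-vector array (-0.18), with -0.20 in the other probe set. TK1, the cytosolic thymidine kinase of the salvage route, was nearly level, at 9.50 in the EGR1 array and 9.55 in the empty-vector array (-0.05 in both probe sets). All 10 probe sets of this group were below 0, against 54.7% of all named probe sets past the floor. Probe sets of one gene are no independent readings. After the lowess correction TK1 was at 0.0034.

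E2F factors were lower in all 5, with a median of -0.17. The activators E2F1, E2F2 and E2F3 differed by -0.02, -0.14 and -0.17. E2F1 was thus almost the same in both arrays, at 7.20 in the EGR1 array and 7.22 in the empty-vector array by its 1 probe set. E2F7, an atypical E2F that represses E2F targets late in S phase, read 7.95 in the EGR1 array and 8.34 in the empty-vector array (-0.39, 1.31-fold lower). Its other probe set, at 6.83 in the EGR1 array and 6.79 in the empty-vector array (0.04), did not show it, so the E2F7 value rests on 1 probe set. E2F8, the other atypical factor, differed by -0.17 with all 3 probe sets between -0.21 and -0.11. Without _x_at and _s_at probe sets, which can bind related transcripts, the E2F median was -0.27 over 4 genes.

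Chromatin and histone-supply genes were lower in all 4, with a median of -0.11. CHAF1A, the large subunit of the chromatin assembly factor that places histones behind the fork, read 8.64 in the EGR1 array and 8.87 in the empty-vector array (-0.23), and its 3 probe sets ran from -0.33 to -0.13. DNMT1, the maintenance DNA methyltransferase, differed by -0.12 and UHRF1, which brings it to newly replicated DNA, by -0.11. SLBP, which binds the stem-loop of histone mRNA, differed by -0.06. The group median became -0.20 when probe sets were averaged and -0.07 after the lowess correction.

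**Figure D5:**
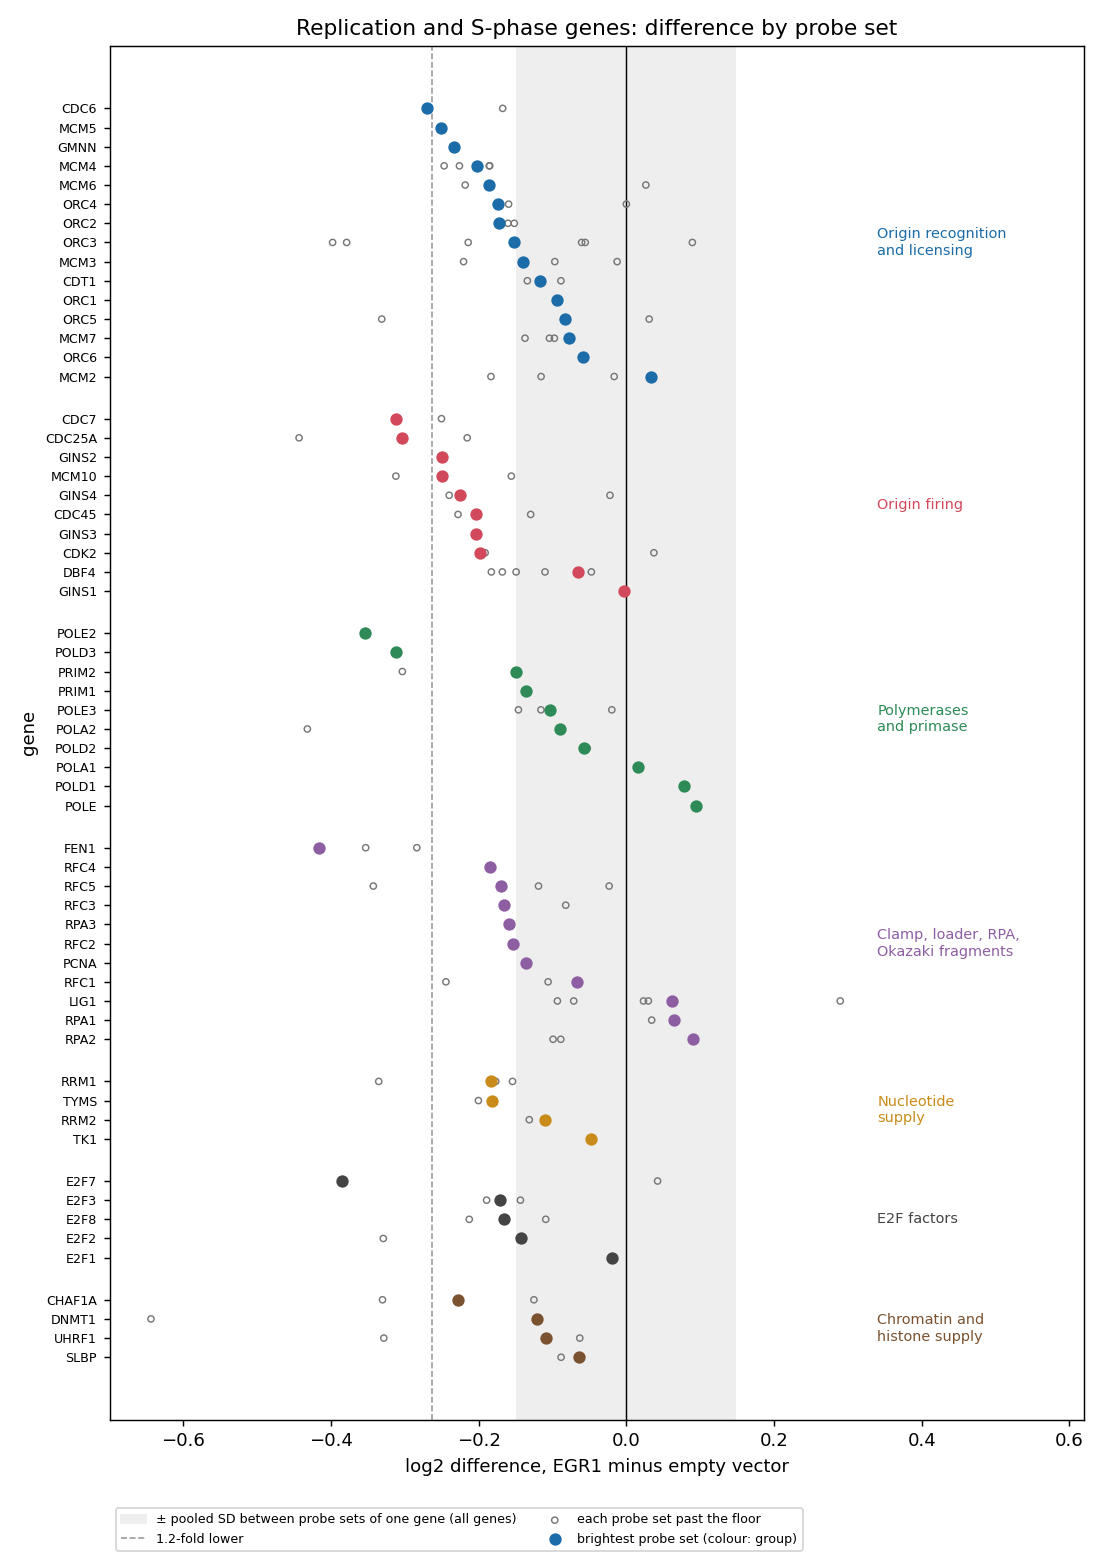
Log2 difference (EGR1 minus empty vector, x axis) for each gene (y axis, by role): filled points are the brightest probe set, open points every other probe set past the floor, the grey band the pooled SD of 0.15, the dashed line 1.2-fold lower. 7 filled points lie left of the dashed line, and none of the 7 above 0 leaves the grey band.

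A second list of 56 replication and S-phase genes outside the 59 was read in the same way, and 54 of them were analysed here, all past the floor. Of these, 39 (72.2%) were below 0, 14 above and 1 at exactly 0, with a median of -0.13. Among all genes past the floor 52.8% were below 0, and 62.7% with level parts weighted as the 59 members fall into them. No such weighting was made for the second list. At or beyond 1.2-fold, 10 (18.5%) were lower and 1 higher, against the backgrounds of 5.85% and 7.07%. This list too was chosen with earlier results of these data known. Its most negative members were MTBP, which acts with treslin in origin firing (6.63 in the EGR1 array and 7.03 in the empty-vector array, -0.40), and DSCC1, a subunit of the cohesion-linked clamp loader (8.31 in the EGR1 array and 8.70 in the empty-vector array, -0.39). The 2 MTBP probe sets disagreed (-0.40 and 0.14), and all 3 of DSCC1 were below 0 (-0.44 to -0.22). TOP2A, the topoisomerase that untangles replicated DNA (-0.37), HELLS, a chromatin remodeller (-0.37), and ATAD5, which unloads PCNA (-0.36), followed. HELLS was even over its 3 probe sets, from -0.40 to -0.35.

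The largest difference of that second list was upward. CCNE1, cyclin E1, the partner of CDK2 at the G1/S boundary and a known E2F target, read 8.67 in the EGR1 array and 8.25 in the empty-vector array (0.41, 1.33-fold higher), and its other probe set gave 0.49. Its direction was opposite to that of CDK2 (-0.20), CDC25A (-0.30) and CDC6 (-0.27).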

How the data were processed

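Expression was measured on 2 Affymetrix arrays, 1 of H1299 cells given the EGR1 plasmid and 1 of cells given the empty plasmid; per the labels' protocols cRNA came from 2 µg of total RNA. The values deposited by the authors are log2 levels made with RMA, per the submitters' processing notes; its software, version and settings, and how many arrays entered it, are not given. No further normalization was applied. Names of probe sets come from GEO's platform annotation, updated to RefSeq (GRCh38.p14) by Entrez ID: 44988 had 1 symbol, of which 44961 matched RefSeq, and 1832 with several were not used. No probe set of a member was among the latter. The brightest probe set stood for a gene, and the floor was the 40th percentile of mean level. With 1 array per group no test was made; counts at 1.2-fold and 2-fold and medians are given beside those of all genes past the floor. The members, lists and thresholds were chosen with earlier results of these data known. Any member could be named; of the second list the 6 largest absolute differences were, and others in the closing section were chosen after their values were seen. EGR1 and the cell markers were checks. Some listed genes are not reported here. The calculation was tested on simulated data without a level trend. The simulated differences were larger than that of any member by its brightest probe set. This checks the code and not differences of the size reported here. Python 3.11.15, NumPy 2.4.6, pandas 2.3.3, statsmodels 0.14.6 (lowess, span 0.3) and matplotlib 3.10.9 were used. The number of arrays limits the precision. The alternatives were other ways to choose probe sets, other floors, median centring and lowess.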

Additional observations from a re-analysis of the deposited data

How the results depend on the processing

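The median of the 59 members ran from -0.16 to -0.10 over the 7 alternatives, and the medians of all 7 role groups and of the second list stayed below 0 in each. Members below 0 numbered 37 of 41 with the second brightest probe set, 53 of 58 with the mean of all probe sets and 49 of 59 after lowess. The mean of all probe sets includes those under the floor. Members at or beyond 1.2-fold lower numbered 4 of 58 (6.90%) with the mean of all probe sets, close to the 5.68% of all genes under that setting, against 7 of 59 (11.9% against 5.85%) by the brightest. They were 5 of 59 (8.47% against 4.81% of genes) after lowess and 6 of 41 (14.6% against 9.42%) with the second brightest probe set; the count ranged from 4 to 8, and none was 1.2-fold higher under any alternative. E2F7 turned to 0.042 with its second brightest probe set. Of members under 1.2-fold, the sign changed for ORC5, MCM2, MCM6, RPA2 and LIG1 with the second brightest probe set, for MCM2 and RPA2 with the mean, for MCM2 without _x_at and _s_at probe sets, for GINS1 with median centring and for GINS1, TK1 and E2F1 after lowess. The cause was not tested. With 1 array per group no replicate could be left out. No paired analysis was possible because each group held 1 array. RMA gives no detection call, so how far the dimmer probe sets exceed background is unknown.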

Other observations

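Probe sets of some members differed from one another by more than the pooled SD of 0.15, and those given here were singled out after they were seen. The dimmer DNMT1 probe set 11736405_a_at read 7.82 in the EGR1 array and 8.47 in the empty-vector array, a difference of -0.64 that was the most negative of all member probe sets past the floor, while the brighter 11756434_a_at gave -0.12. POLA2 gave -0.43 in 11746633_a_at and -0.09 in the brighter 11717667_a_at. LIG1 gave 0.29 in 11752816_a_at, the most positive of the member probe sets past the floor, and -0.09 to 0.06 in its other 5. For ORC3, 11747394_a_at gave -0.40 and 11748588_a_at gave -0.38, against -0.21 to 0.09 in the other 5. Which transcripts these probe sets read was not established here.

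Further genes of the second list, chosen after their values were seen, are given as values. RB1, the retinoblastoma gene, read 7.89 in both arrays. The related RBL1 and RBL2 differed by -0.14 and -0.09, the E2F partners TFDP1 and TFDP2 by -0.08 and 0.006, cyclin A2 (CCNA2) by -0.14, cyclin E2 (CCNE2) by 0.14 and cyclin D1 (CCND1) by -0.04. E2F4, E2F5 and E2F6 differed by -0.05, 0.17 and -0.07, and MYBL2, an E2F target, by 0.02. SKP2, the ubiquitin ligase subunit that marks p27 for destruction, read 6.78 in the EGR1 array and 7.08 in the empty-vector array (-0.31). RRM2B, an alternative small subunit of ribonucleotide reductase, read 9.14 in the EGR1 array and 8.90 in the empty-vector array (0.24), opposite to RRM1 (-0.18) and RRM2 (-0.11).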
